A study of Mus musculus with 8 samples.

Results

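Cadherins, non-clustered protocadherins, catenins and the Ncam adhesion molecules were described as a group of genes in islet RNA of β-tetO-NICD and control mice. Members were taken by a rule on gene symbols. They were every Cdh and every Pcdh gene whose symbol ends in digits only, Celsr1 to Celsr3, Fat1 to Fat4, Dchs1, Dsc1 to Dsc3, Dsg2, Ctnna1 to Ctnna3, Ctnnb1, Ctnnd1, Ctnnd2, Jup, Ncam1 and Ncam2. The rule found 55 of the 32531 rows of the count table, and 41 of the 55 reached 10 counts in at least 4 of the 8 libraries, the minimum for testing.

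Cadherins are calcium-dependent receptors that mostly bind the same cadherin on a neighboring cell, so that cells with like cadherins hold together and sort away from cells with others. Classical cadherins bind p120-catenin and β-catenin inside the cell and reach the actin cytoskeleton through α-catenin, whereas desmosomal cadherins bind plakoglobin and hold intermediate filaments. In islets, the clusters of hormone cells of the pancreas, E-cadherin and N-cadherin join the endocrine cells to each other.

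The study sequenced poly(A) RNA of isolated islets to look for genes that go with a changed arrangement of islet cells. Before that, it reported Cdh1, Epcam and Ncam unchanged in β-tetO-NICD islets, with the data in its supplement. Both groups carried RIP-Cre and Rosa26-rtTA on a mixed C57BL/6J, 129X1/SvJ and BALB/c background and drank doxycycline (Dox) for 8 weeks. The 4 β-tetO-NICD mice also carried tetO-NICD, from which Dox induces NICD, the intracellular domain of Notch1 that is freed when the receptor is activated, and the 4 controls did not. Cre is driven by an insulin promoter, so NICD was directed to β cells, but whole islets (called Notch-active islets here, their libraries NICD libraries) were measured. The age of the sequenced mice was not given in the sources used here, though the study's scheme has Dox from weaning or in older mice. The β-tetO-NICD columns are numbered 1, 2, 4 and 5, and libraries 4 and 5 were assigned to the group without a mouse number.

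Library totals ran from 22430941 to 25950164 counts in controls and from 21701223 to 26413146 in Notch-active islets, where 3 counts correspond to at most 0.138 and 0.151 CPM, the counts scaled to normalized library size. Notch1, which checks the labels, had 1051 to 1562 counts in controls and 11388 to 36628 in NICD libraries. Across 14614 genes that are not members, and that are not independent replicates, Spearman's rho of transcript length with the excess of a library over the mean of the 8 was positive in controls 1, 2 and 4 and NICD library 1 (0.42 to 0.50) and negative in the other 4 libraries (−0.52 to −0.17). The study's methods name male islets for expression work, but the Y-linked gene Eif2s3y had at least 1300 counts in 3 libraries and at most 1 in the other 5. Summed β cell markers were 157175 to 197769 CPM in controls and 72403 to 172163 CPM in Notch-active islets, and summed α cell markers 12402 to 43474 and 56087 to 71089 CPM. In RNA of whole islets, fewer cells of a type and less RNA per cell cannot be told apart. The study reported an unchanged ratio of glucagon-positive to insulin-positive cells against Cre-negative controls.

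Among the 41 members tested, 4 had an adjusted p under 0.05 (Benjamini-Hochberg, quasi-likelihood test of edgeR), against 6.76% of all 15082 genes tested. Pcdh10 and Cdh22 were higher in Notch-active islets, where 4.19% of all genes were called higher, and Cdh7 and Cdh8 were lower, where 2.57% were called lower. The groups did not overlap in 8 members, which were Pcdh10, Cdh22, Ctnnd2, Ncam1 and Pcdh8 above the controls and Cdh7, Cdh8 and Cdh19 below them, and in 16.1% of all genes tested. An unadjusted p under 0.05 was reached by 11 members and 4769 of the 15082 genes. Log2 fold changes (log2FC, β-tetO-NICD over control) were positive in 15 members and negative in 26, with a median of −0.18 beside 0.00071 for all genes tested. DESeq2's Wald test called 8 members in place of 4, adding Cdh11, Ctnnd2 and Jup as higher and Cdh19 as lower, and 2739 of all genes in place of 1020. limma-voom called 4 members.

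**Figure D1:**
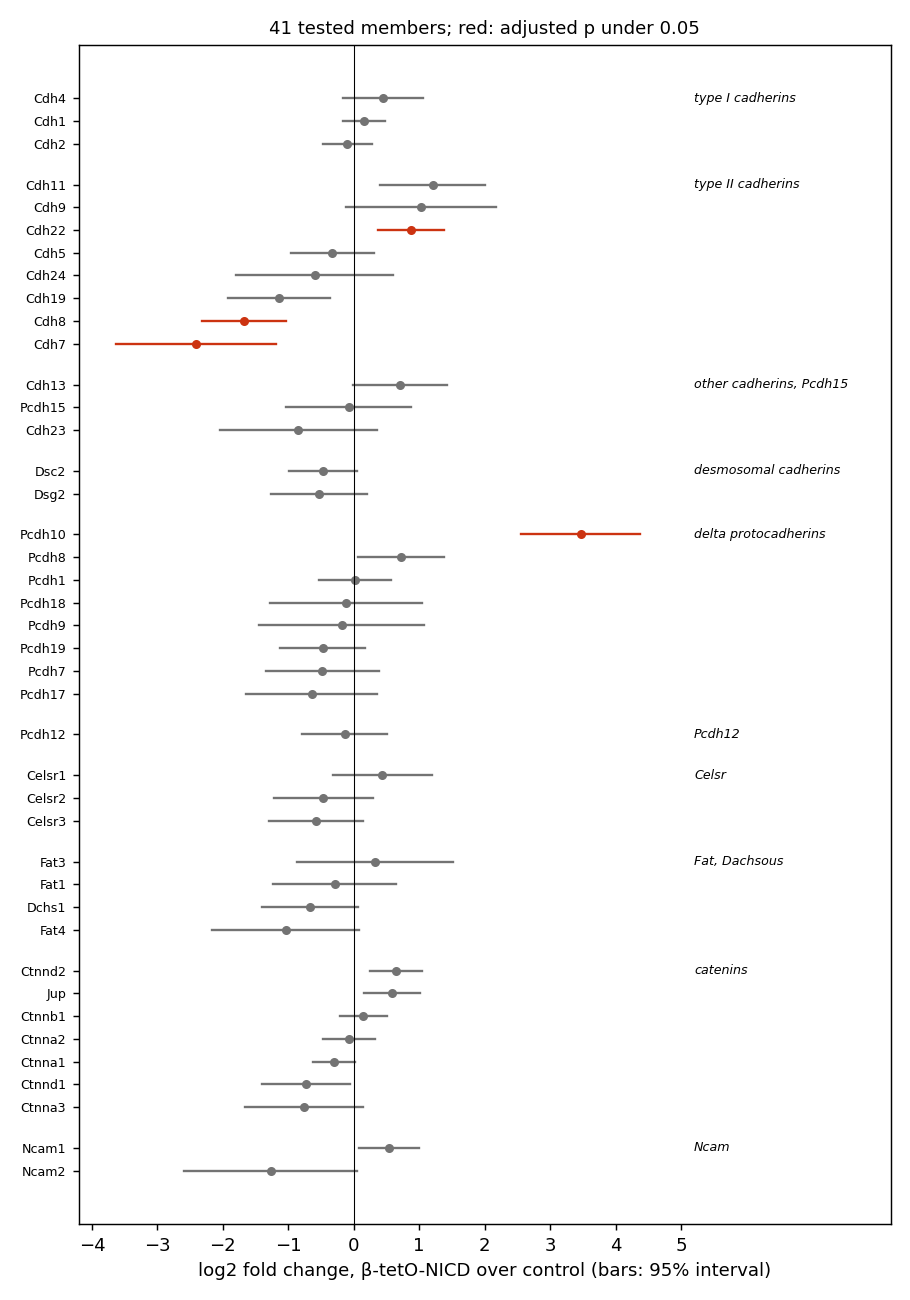
Log2 fold change of each tested member with its 95% interval, grouped by family, with β-tetO-NICD over control to the right of 0. Red marks an adjusted p under 0.05, reached by Pcdh10 (3.47), Cdh22 (0.88), Cdh8 (−1.68) and Cdh7 (−2.41), and most other intervals span 0.

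Of the 55 members, 35 had a promoter window in RefSeq (GRCm38.p6), 250 bases before to 50 bases after an annotated start. Because NICD acts through the DNA-binding protein RBPJ and induces Hes and Hey repressors, windows were searched on both strands for TGGGAA, the core of the RBPJ site, and for CACGTG or CACGCG, which Hes and Hey proteins bind. These letters are common. TGGGAA stood in 25.6% of all 32851 windows and in 9 of the 42 windows of members, and the Hes and Hey letters in 15.4% of all windows and in 11 of the 42. The stretches below are those before the start of 3 of the 4 called members, shown 5′ to 3′ on the strand of the gene, with matches in capitals. They cover chr3:45378148-45378397 on the plus strand for Pcdh10, chr8:99416472-99416721 on the minus strand for Cdh8 and chr2:165234854-165234987 on the minus strand for Cdh22, where 134 bases lie outside annotated exons.
Pcdh10: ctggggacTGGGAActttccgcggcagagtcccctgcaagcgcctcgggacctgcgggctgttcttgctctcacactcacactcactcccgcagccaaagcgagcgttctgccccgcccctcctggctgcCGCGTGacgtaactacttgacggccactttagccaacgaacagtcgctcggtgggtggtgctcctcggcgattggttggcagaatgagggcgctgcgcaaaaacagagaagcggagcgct
Cdh8: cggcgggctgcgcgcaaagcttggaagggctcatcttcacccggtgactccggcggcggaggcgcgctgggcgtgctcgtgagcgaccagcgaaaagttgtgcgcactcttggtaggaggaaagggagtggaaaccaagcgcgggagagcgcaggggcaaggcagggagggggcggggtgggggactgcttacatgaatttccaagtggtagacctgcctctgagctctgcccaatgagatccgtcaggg
Cdh22: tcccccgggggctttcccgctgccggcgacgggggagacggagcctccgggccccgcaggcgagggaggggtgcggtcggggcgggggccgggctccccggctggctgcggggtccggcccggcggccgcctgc
The Pcdh10 stretch holds TGGGAA, first base 242 bases before the start, and CACGCG read on the other strand as CGCGTG, 120 bases before it. The whole window of Cdh8 held neither motif. That of Cdh22 held no TGGGAA and 1 match to the Hes and Hey letters 33 bases after the start. Each of the 3 windows of Cdh7, which lie in annotated exons and are not shown, held TGGGAA once. A match describes the letters only, and no binding was measured here.

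The type I classical cadherins are the general adhesion receptors of epithelia and nerve. Cdh1, which encodes E-cadherin (chr8:106603351-106670246, GRCm38), had 362, 329.6, 285 and 340.0 CPM in controls 1 to 4 and 359, 344, 386 and 379 CPM in NICD libraries 1, 2, 4 and 5. The 2 ranges overlapped, and the log2FC of 0.16 had a 95% interval from −0.16 to 0.48 (adjusted p = 0.454). Cdh2, N-cadherin, ran from 102 to 143 CPM in controls and from 92.6 to 139 CPM in Notch-active islets, with a log2FC of −0.10 (interval −0.47 to 0.28, adjusted p = 0.703). Its sign was not settled, since it was 0.027 with a term for the direction of the length relation and 0.096 with a transcript length offset. Cdh4, R-cadherin, was at 8.70 ± 2.98 CPM in controls and 11.9 ± 2.49 CPM in Notch-active islets (SD, n = 4 each), a log2FC of 0.45 that did not pass (adjusted p = 0.268). With edgeR's test and the length offset its log2FC was 0.82 and it passed (adjusted p = 0.0388). Without the offset or other added terms, no type I cadherin passed edgeR's test, and 0 of the 3 tested had an unadjusted p under 0.05 or an adjusted p under 0.05 with DESeq2. Cdh3 and Cdh15 were under the count minimum, with at most 19 and 4 counts in a library.

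The type II classical cadherins are best known from the nervous system, where different combinations mark groups of neurons. Of the 8 tested, 3 passed, beside 6.76% of all genes tested. Cdh8 (chr8:99024471-99416471), which encodes a neuronal type II cadherin, had 49.9, 54.8, 54.4 and 64.6 CPM in controls and 26.9, 15.9, 18.1 and 8.77 CPM in NICD libraries 1, 2, 4 and 5. Every NICD library lay below the lowest control. The means were 55.9 ± 6.22 and 17.4 ± 7.47 CPM (SD, n = 4 each), a log2FC of −1.68 (standard error 0.29, interval −2.32 to −1.04, adjusted p = 0.00963, edgeR). Cdh8 passed with any 1 of the 8 libraries left out, where the log2FC stayed between −1.96 and −1.46. Among the 5 libraries that lack Eif2s3y, 3 from Notch-active islets and 2 controls, it missed the threshold with a log2FC of −1.37 (adjusted p = 0.0823).

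Cdh7 (chr1:109982431-110140157), another type II cadherin of the nervous system, had 25.4, 27.0, 14.6 and 16.8 CPM in controls and 9.65, 1.75, 1.69 and 2.82 CPM in NICD libraries 1, 2, 4 and 5. The groups did not overlap, but library 1 stood well above the other 3 of its group. The mean fell from 20.9 ± 6.17 to 3.98 ± 3.82 CPM (SD, n = 4 each), a log2FC of −2.41 (standard error 0.55, interval −3.62 to −1.19, adjusted p = 0.0313, edgeR). The call depended on which libraries entered. It passed in 2 of the 8 fits with 1 library left out, those without NICD library 1 (log2FC −3.33, adjusted p = 0.000392) and without control 3 (adjusted p = 0.0418), and the adjusted p reached 0.0956 in the other 6. It was also lost among the 5 libraries that lack Eif2s3y (log2FC −2.21, adjusted p = 0.294) and with an Eif2s3y term (−2.46, adjusted p = 0.0575).

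Cdh22 (chr2:165111507-165234853), which encodes a cadherin of pituitary and brain, had 16.3, 8.15, 11.4 and 8.73 CPM in controls and 17.3, 20.8, 21.4 and 22.1 CPM in Notch-active islets. The lowest NICD library, number 1, was just above the highest control, number 1. The means were 11.1 ± 3.73 and 20.4 ± 2.11 CPM (SD, n = 4 each), and the log2FC was 0.88 (standard error 0.23, interval 0.37 to 1.38, adjusted p = 0.0490, edgeR). This was the call nearest the threshold. It held without control 1 (adjusted p = 0.0207) and without NICD library 1 (adjusted p = 0.0166), and was lost with each of the other 6 libraries left out and in 7 of 13 further alternatives, among them median-ratio normalization and no filter on low counts.

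Of the 5 other type II genes tested, Cdh19 and Cdh11 came nearest to the threshold. Cdh19, a cadherin of glial and Schwann cell lineages, had 7.29, 9.80, 6.09 and 10.2 CPM in controls and 5.70, 3.10, 4.52 and 1.71 CPM in Notch-active islets. The groups did not overlap, yet the log2FC of −1.15 did not pass (adjusted p = 0.0727). Of 9 Schwann and neural markers, Th, an enzyme of catecholamine synthesis, alone was called, with means of 41.9 and 15.0 CPM (log2FC −1.48, adjusted p = 0.000681). Of the other 8, 3 had a positive and 5 a negative log2FC, and the median over the 9 was −0.11. The 9, with Th included, summed to 140 to 166 CPM in controls and 103 to 114 CPM in Notch-active islets. No sum without Th was formed. The part of these markers in the Cdh19 values was not tested.

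Cdh11, a cadherin of mesenchymal cells, had 1.20, 2.49, 1.23 and 2.07 CPM in controls and 5.61, 3.10, 4.95 and 2.47 CPM in Notch-active islets, where library 5 lay within the control range. Its log2FC was 1.21 (interval 0.40 to 2.01, adjusted p = 0.0697). It passed with the length offset (1.47, adjusted p = 0.0143) and with a term for the direction of the length relation (1.53, adjusted p = 0.0474). Summed stellate cell and fibroblast markers ran from 245 to 831 CPM in controls and from 439 to 537 CPM in Notch-active islets, and 0 of 10 were called by edgeR's test or by DESeq2, with 1 at an unadjusted p under 0.05.

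Cdh5, the VE-cadherin of endothelium, ran from 19.3 to 46.6 CPM in controls and from 18.2 to 35.9 CPM in Notch-active islets, with overlapping groups (log2FC −0.33, adjusted p = 0.428). Its sign turned to 0.13 among the 5 libraries without Eif2s3y and to 0.094 with the term for the direction of the length relation. Cdh9, a synaptic cadherin, had 0.974 to 2.58 CPM in controls and 6.94 CPM in NICD library 1 against 1.81 to 2.19 CPM in the other 3 (log2FC 1.02, adjusted p = 0.196). Without library 1 its log2FC was 0.35. Cdh24 was below 1 CPM in every library and did not pass (adjusted p = 0.451). Cdh6, Cdh10, Cdh12, Cdh18 and Cdh20 were under the count minimum, with at most 24 counts in a library.

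**Figure D2:**
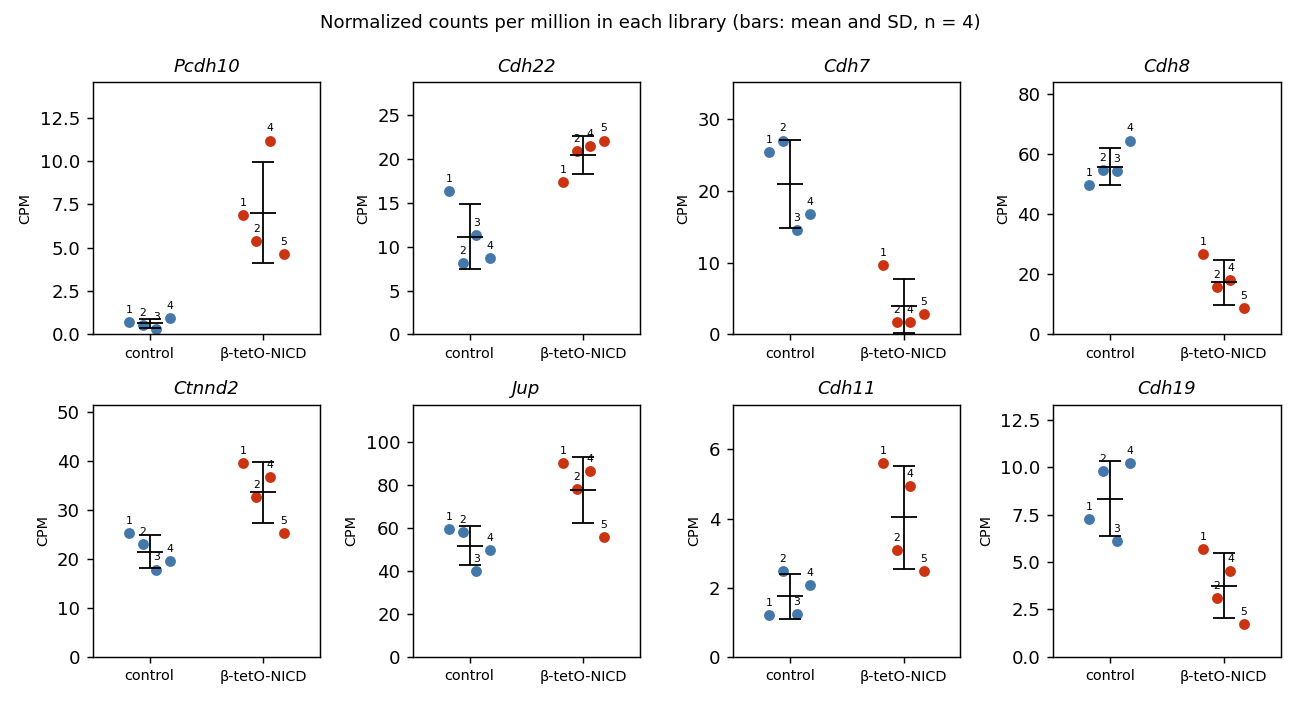
CPM of the 4 called members and of 4 members nearest the threshold in each of the 4 control and 4 NICD libraries, with numbers for the libraries and bars for the mean and SD, on linear axes that start at 0. NICD libraries lay above all controls for Pcdh10, Cdh22 and Ctnnd2 and below them for Cdh7, Cdh8 and Cdh19, and overlapped the controls for Jup and Cdh11.

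Levels were set beside each other per kilobase of the longest transcript. Cdh1 and Cdh2 made up most of the summed RNA of type I and type II cadherins, which totalled 114 to 145 CPM per kilobase in controls and 119 to 139 in Notch-active islets. Cdh7 and Cdh8 together took 11.0%, 12.6%, 13.0% and 13.3% of that sum in controls 1 to 4 and 5.63%, 3.21%, 3.24% and 2.05% in NICD libraries 1, 2, 4 and 5. The share of Cdh22 was 1.60% to 3.04% in controls and 3.38% to 4.93% in Notch-active islets. Cdh1 took 54.1% to 58.5% in controls and 58.5% to 70.8% in Notch-active islets. These sums were formed after the values of the single genes were known and are given without a test.

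**Figure D3:**
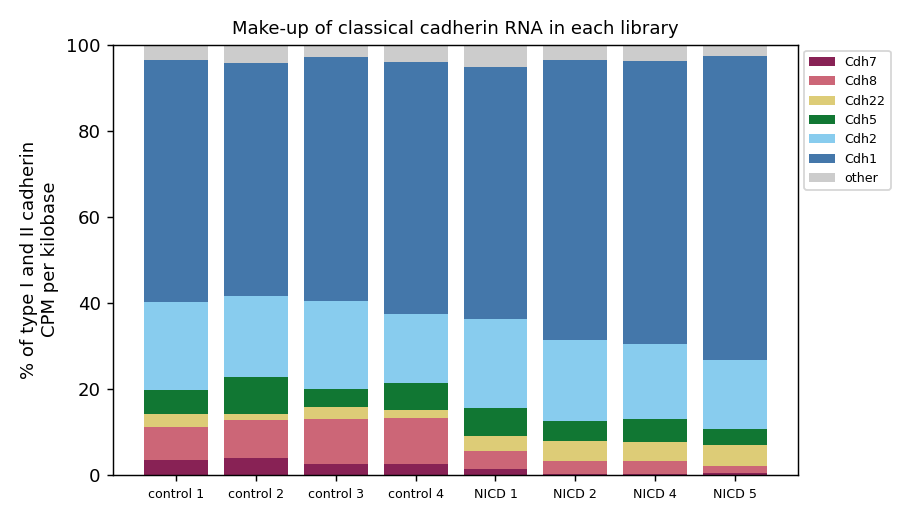
Percent of the summed CPM per kilobase of the type I and type II cadherins taken by each gene, with 1 bar per library and shares adding to 100%. The share of Cdh7 with Cdh8 was 11.0% to 13.3% in the 4 controls and 2.05% to 5.63% in the 4 NICD libraries.

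The delta protocadherins bind weakly, signal through their cytoplasmic tails and are mostly known from neurons. Of the 8 tested, 1 passed, beside 6.76% of all genes tested. Pcdh10 (chr3:45378398-45435623), a delta protocadherin whose tail recruits regulators of actin, had 0.738, 0.549, 0.317 and 0.934 CPM in controls, or 16, 13, 8 and 23 counts. It had 6.89, 5.41, 11.2 and 4.63 CPM in NICD libraries 1, 2, 4 and 5, or 145, 124, 337 and 92 counts. The lowest NICD library was well above the highest control. The mean rose from 0.634 ± 0.264 to 7.03 ± 2.92 CPM (SD, n = 4 each), which is 11.1-fold in the fit, with a log2FC of 3.47 (standard error 0.41, interval 2.56 to 4.38, adjusted p = 0.00147, edgeR). Pcdh10 passed with any 1 library left out, with log2FC values between 3.15 and 3.73, and in the 12 further alternatives that tested it. With at least 10 counts required in all libraries it was not tested, because control 3 had 8. Within the libraries with a positive length relation the difference of mean log2 CPM was 3.08, and within the others it was 3.998. Each has a single library on 1 side, NICD library 1 in the first and control 3 in the second.

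Pcdh8, an activity-regulated protocadherin of synapses, had 2.08, 1.82, 1.86 and 1.91 CPM in controls and 5.08, 2.40, 2.62 and 2.52 CPM in Notch-active islets. The groups did not overlap, and library 1 stood apart from the rest of its group. Its log2FC of 0.72 did not pass (adjusted p = 0.137), and was 0.40 without library 1. Pcdh1, an epithelial protocadherin and the most abundant of the 8 per kilobase, had 60.8 to 99.9 CPM in controls and 49.0 to 100.2 CPM in Notch-active islets, a log2FC of 0.02 with an interval from −0.53 to 0.58 and a sign that changed with the fit. Pcdh7, Pcdh9, Pcdh17, Pcdh18 and Pcdh19 had log2FC values between −0.64 and −0.11 that did not pass (adjusted p 0.275 to 0.891), and each of them turned positive in at least 1 alternative. Without NICD library 1, Pcdh17 passed with a log2FC of −1.20 (adjusted p = 0.0304), in a fit where 4954 of 14902 genes passed. Pcdh12, the endothelial protocadherin, had a log2FC of −0.14 (adjusted p = 0.757) and changed sign between fits, and Pcdh20 reached at most 20 counts and was not tested.

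The remaining cadherins differ from the classical ones in their tails or their job. Cdh13, T-cadherin, which has a lipid anchor in place of a tail and binds adiponectin, had a log2FC of 0.70 (interval −0.02 to 1.42, adjusted p = 0.166). Cdh23 and Pcdh15, which form the tip links of hair cells, had log2FC values of −0.84 and −0.08 (adjusted p = 0.290 and 0.909). Pcdh15 was at 24.1 CPM in NICD library 1 and 7.69 to 9.93 CPM in the other 3, and its sign changed between fits. Cdh16, Cdh17 and Cdh26 reached at most 10 counts in a library.

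Of the desmosomal cadherins, Dsg2 and Dsc2, the pair of simple epithelia, were detected. Dsg2 had 44.0, 35.8, 23.0 and 41.9 CPM in controls and 43.9, 16.4, 22.05 and 18.0 CPM in Notch-active islets, where library 1 was at the level of the controls. Its log2FC was −0.53 (adjusted p = 0.277), and −0.94 without library 1, where it passed (adjusted p = 0.0164), as did 4954 of 14902 genes. Dsc2 had a log2FC of −0.47 (interval −0.99 to 0.05, adjusted p = 0.192). Dsc1 and Dsc3 reached at most 1 and 6 counts.

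The large cadherins of planar polarity are the Celsr receptors, which align cells across a sheet, and Fat and Dachsous, which bind each other between cells. Celsr3 had 80.6, 71.6, 38.7 and 76.9 CPM in controls and 75.3, 29.7, 41.4 and 33.9 CPM in Notch-active islets. Fat1 had 82.7, 63.3, 28.2 and 72.0 CPM in controls and 96.1, 29.9, 43.8 and 31.3 CPM in Notch-active islets. For both genes the libraries with a positive length relation, controls 1, 2 and 4 and NICD library 1, lay above the other 4. The log2FC was −0.57 for Celsr3, −0.46 for Celsr2, 0.44 for Celsr1, −0.29 for Fat1, 0.32 for Fat3, −1.04 for Fat4 and −0.67 for Dchs1, and none passed edgeR's test (adjusted p 0.183 to 0.696), with 0 of the 7 at an unadjusted p under 0.05 or called by DESeq2. With the length offset, Celsr2, Celsr3 and Fat1 had log2FC values of 0.068, 0.032 and 0.39. Without NICD library 1, Celsr2 (−0.88), Celsr3 (−0.93) and Fat4 (−1.53) passed as lower, in a fit where 4954 of 14902 genes passed. Fat2 reached at most 5 counts and was not tested.

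Members are long genes, with a median longest transcript of 5.647 kb against 3.359 kb for all genes tested. Of the 13 tested members of 8 kb or more, 10 had a negative log2FC, with a median of −0.47, and Pcdh10 alone was called. Of all 865 tested genes of that length, 722 had a negative log2FC and the median was −0.53, with 13 called higher and 41 lower. With the length offset, Pcdh10, Cdh22, Cdh4, Cdh11, Ctnnd2 and Ncam1 passed as higher and Cdh7 and Cdh8 as lower, while calls over all 15082 genes went from 1020 to 1548.

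**Figure D4:**
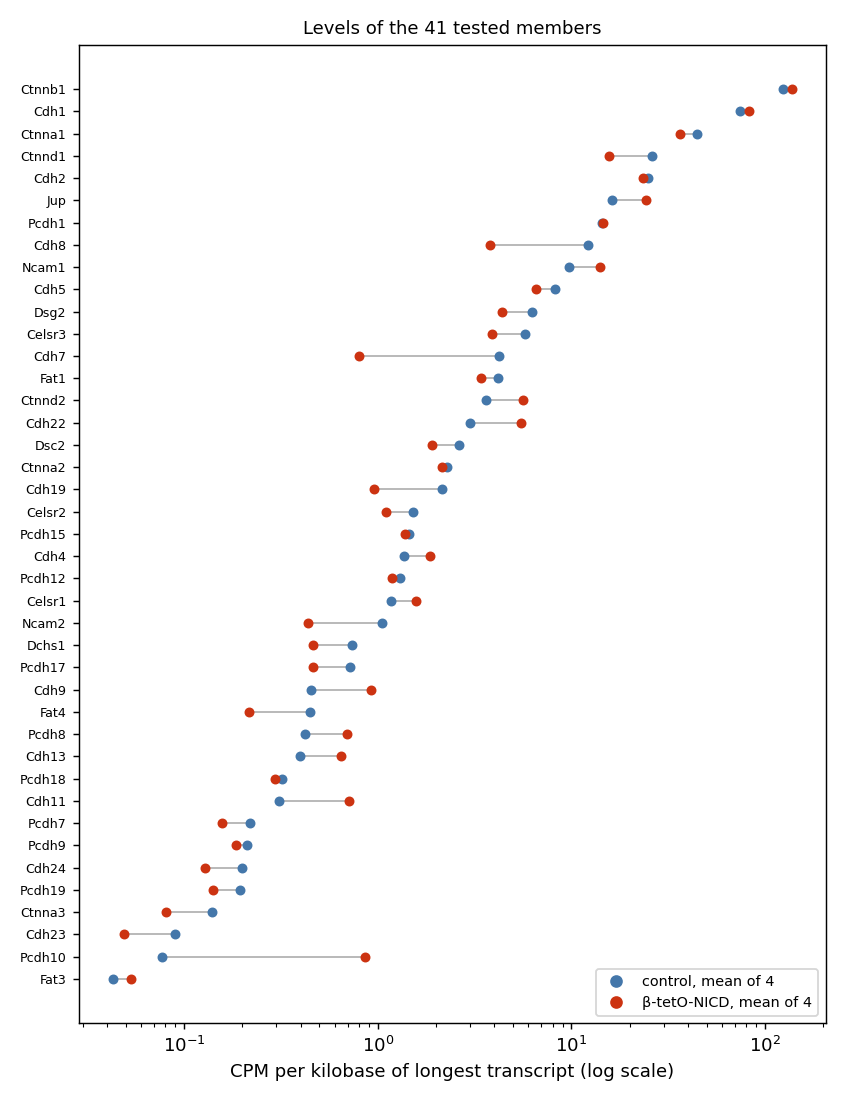
Mean CPM per kilobase of the longest transcript in the 4 control and the 4 NICD libraries for each tested member, on a log axis, ordered by the control mean. Ctnnb1 (123 in controls) and Cdh1 (74.3) were at the top, and Pcdh10 moved from 0.0770, next to the lowest, to 0.854.

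The catenins carry the cadherin tail to the cytoskeleton, and 7 were tested. Ctnnb1, β-catenin, which also transmits Wnt signals, had the highest level of all members per kilobase, with 123 ± 8.08 CPM per kilobase in controls and 137 ± 19.5 in Notch-active islets (SD, n = 4 each). Its log2FC was 0.15 (interval −0.21 to 0.51, adjusted p = 0.529). Ctnna1, α-catenin, the actin link, had 178, 166, 143 and 180.0 CPM in controls and 152, 131, 143 and 116 CPM in Notch-active islets, a log2FC of −0.30 (interval −0.63 to 0.02, adjusted p = 0.183). Ctnna2, the neural α-catenin, and Ctnna3, that of heart and testis, had log2FC values of −0.07 and −0.76 (adjusted p = 0.794 and 0.212), and the sign of Ctnna2 changed between fits.

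Catenins of the p120 family bind the part of the tail next to the membrane and keep cadherins at the cell surface. Ctnnd2, δ-catenin, mainly a neural protein, had 25.2, 23.1, 17.8 and 19.5 CPM in controls and 39.5, 32.6, 36.6 and 25.3 CPM in Notch-active islets. Its libraries did not overlap, with library 5 just above the highest control, and the log2FC of 0.65 (standard error 0.18, interval 0.25 to 1.05) missed the threshold (adjusted p = 0.0591). Ctnnd1, p120-catenin, had 183, 172, 120.4 and 184 CPM in controls and 146, 92.0, 112 and 47.4 CPM in Notch-active islets, a log2FC of −0.73 that did not pass (adjusted p = 0.140). Without NICD library 1, both passed, Ctnnd2 at 0.56 (adjusted p = 0.0388) and Ctnnd1 at −0.97 (adjusted p = 0.0285). In that fit 4954 of 14902 genes passed. The ratio of Ctnnd2 to Ctnnd1 in CPM per kilobase was 0.114 to 0.158 in controls and 0.290 to 0.572 in Notch-active islets, a ratio chosen after the values were seen and given without a test.

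Jup, plakoglobin, which serves both junctions, had 59.8, 58.1, 39.8 and 49.6 CPM in controls and 90.4, 78.4, 86.8 and 55.9 CPM in Notch-active islets, where library 5 lay within the control range. Its log2FC was 0.59 (standard error 0.19, adjusted p = 0.0866). Jup passed with the term for the direction of the length relation (0.79, adjusted p = 0.0408) and without NICD library 5 (0.72, adjusted p = 0.0471). Ctnnd2 passed with the length offset (0.96, adjusted p = 0.00228) and with that term (0.82, adjusted p = 0.0299). It also passed with upper-quartile normalization (adjusted p = 0.0352) and with at least 10 counts required in all libraries (adjusted p = 0.0454). In all, Ctnnd2 passed in 2 of 8 fits with 1 library left out and in 5 of 13 further alternatives. Jup passed in 1 of those 8 and in 2 of those 13. In the test of all 8 libraries with TMM, the count minimum given above and no added term, 0 of 7 catenins passed with edgeR, 3 had an unadjusted p under 0.05, and DESeq2 called Ctnnd2 and Jup (adjusted p = 0.0115 and 0.0348).

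Ncam1 and Ncam2 are adhesion molecules of the immunoglobulin family, not cadherins. Ncam1 had 62.5, 71.5, 49.9 and 71.4 CPM in controls and 78.1, 74.7, 88.2 and 129 CPM in Notch-active islets. The groups did not overlap, though library 2 was close to the highest control, and the log2FC of 0.54 did not pass (adjusted p = 0.121). Ncam2 had 2.97 to 10.8 CPM in controls and 6.46 CPM in NICD library 1 against 1.11 to 1.76 CPM in the other 3 (log2FC −1.27, adjusted p = 0.172). Without library 1, Ncam1 passed as higher (0.61, adjusted p = 0.0489) and Ncam2 as lower (−2.18, adjusted p = 0.00856). In that fit 4954 of 14902 genes passed. Ncam1 also passed with an Eif2s3y term (0.64, adjusted p = 0.0473), where Cdh22 did not (adjusted p = 0.0647).

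NICD library 1 bore on many of these calls. Without it, 14 of the 41 members tested passed, as did 4954 of all 14902 genes tested, in place of 1020 of 15082. Of the 14, 4 were higher (Pcdh10, Cdh22, Ctnnd2 and Ncam1) and 10 lower (Cdh7, Cdh8, Cdh19, Celsr2, Celsr3, Ctnnd1, Dsg2, Fat4, Ncam2 and Pcdh17). The 3 NICD libraries that then remain have a negative length relation, as does 1 of the 4 controls. Within the 4 libraries with a positive length relation and within the 4 with a negative one, differences of mean log2 CPM were −1.06 and −1.99 for Cdh8, −1.22 and −2.78 for Cdh7 and 0.72 and 0.91 for Cdh22. Within the 3 libraries with Eif2s3y and the 5 without it, they were −2.75 and −1.39 for Cdh8, −2.88 and −2.60 for Cdh7, 1.38 and 0.54 for Cdh22 and 2.53 and 3.68 for Pcdh10. All but those within the 5 libraries without Eif2s3y have a single library on 1 side, and all are given without a test.

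**Figure D5:**
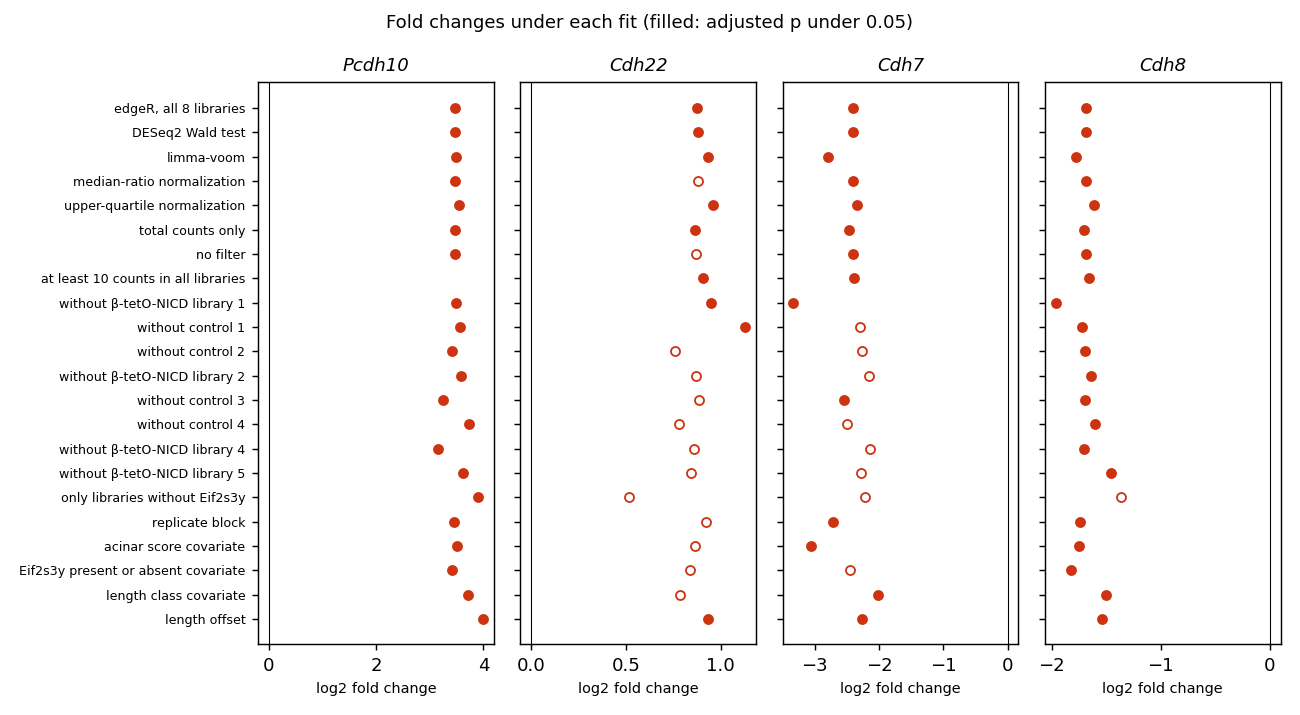
Log2 fold change of the 4 called members with all 8 libraries and under each alternative, filled where the adjusted p was under 0.05. Pcdh10 (3.15 to 3.73 with 1 library left out) and Cdh8 (−1.96 to −1.46) stayed filled with any 1 library left out, whereas Cdh7 and Cdh22 did so in 2 of 8 such fits, and no estimate changed sign.

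Genes that act with the members were read from 4 lists. Of 58 genes listed, 55 were tested and 4 passed, beside the 6.76% of all genes. Among 24 partners of adherens junctions and desmosomes, 2 passed, both nectins, immunoglobulin-like receptors that start adherens junctions. Nectin3 had 81.3, 75.0, 75.5 and 71.7 CPM in controls and 164, 126, 151 and 132 CPM in Notch-active islets. The groups were far apart, and the log2FC of 0.92 (standard error 0.14, adjusted p = 0.00523) passed with any 1 library left out. Among the 5 libraries that lack Eif2s3y the 4 partner calls were lost, and the log2FC of Nectin3 was 0.90 (adjusted p = 0.133). Nectin4 was at 2.53 to 3.18 CPM in controls and 4.74 to 8.12 CPM in Notch-active islets, a log2FC of 1.26 (adjusted p = 0.0125) that passed in 6 of those 8 fits. Nectin1, with no overlap either, had a log2FC of 0.81 (adjusted p = 0.0540).

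Fjx1, whose product phosphorylates the cadherin domains of Fat and Dachsous, was the called gene of 15 polarity partners. It had 1.38, 1.65, 0.475 and 1.06 CPM in controls and 3.09, 3.36, 5.58 and 8.92 CPM in Notch-active islets, a log2FC of 2.20 (standard error 0.46, adjusted p = 0.0224) that passed in 5 of 8 fits with 1 library left out and was lost with the term for the direction of the length relation (2.27, adjusted p = 0.0809). Of 11 genes of proteases that cut cadherins and of the γ-secretase complex, Adam9 passed as lower, from 53.7 ± 8.74 to 28.8 ± 8.66 CPM (SD, n = 4 each) with a log2FC of −0.90 (adjusted p = 0.0468), and did so in 1 of those 8 fits. It was lost with the length term (−0.68, adjusted p = 0.106) and with an Eif2s3y term (−0.99, adjusted p = 0.063). Adam10, a protease of E-cadherin and N-cadherin, had a log2FC of −0.55 (adjusted p = 0.0758). Of 8 transcription factors that repress Cdh1, 5 were tested and 0 passed edgeR's test or DESeq2's, with 1 at an unadjusted p under 0.05. Snai1, Snai2, Zeb1, Zeb2 and Tcf3 had log2FC values of 0.38, 0.36, −0.63, −0.57 and 0.24.

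Among the marker lists of islet cells, the α cell genes Irx1, Irx2 and Gc and the delta cell gene Hhex were called higher and 3 of 10 β cell genes (Slc2a2, Ucn3 and G6pc2) lower. Of 8 macrophage and leukocyte markers tested, 7 had a positive log2FC and C1qa, of complement, was called higher, and the list summed to 165 to 205 CPM in controls and 234 to 326 CPM in Notch-active islets. Of the 4 mesothelial markers 2 were tested, and they had opposite signs: Msln was called lower, with means of 81.5 and 16.1 CPM (log2FC −2.34, adjusted p = 0.00473), and Wt1 did not pass, with means below 1 CPM (log2FC 0.72, adjusted p = 0.348). Endothelial markers were 545 to 860 and 727 to 854 CPM, and acinar markers 60539 to 120778 and 50635 to 169749 CPM. Before sequencing, the study had reported islet macrophages and endothelial cells unchanged in level and distribution. The part of these cell types in the values of the called members was not tested. With an acinar marker score as a covariate, Pcdh10, Cdh7 and Cdh8 passed and Cdh22 did not.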

How the data were processed

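Members, gene lists and tests were chosen with earlier results of these data known. Islet RNA of 8 mice was made into stranded poly(A) libraries, and the authors pseudoaligned reads to the GRCm38 transcriptome with Kallisto and deposited whole-number counts per gene symbol, without normalization. The Kallisto version, the annotation release and whether strand was used are not given in the sources used here, and without strand, reads of antisense genes that overlap Cdh8 and Pcdh10 cannot be told apart from theirs. The deposited table of the authors' own comparison, with log2 fold changes, mean expression, test statistics, p values and log odds, was not used. The columns of per-sample values other than those of the 8 libraries numbered 0.

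The tool was edgeR 4.0.16 in R 4.3.3. Testing required 10 counts in 4 of the 8 libraries, TMM set the library sizes, and groups were compared by the quasi-likelihood test with Benjamini-Hochberg adjustment over 15082 genes. Intervals are at 95%, and the 4 libraries per group limit their precision. Each library was taken as 1 mouse, as the labels number them, and p values measure the spread between these libraries. The lowest chi-square per gene over 12 pairs within groups was 31.5, so none was treated as a repeat. The 3-count floor covers counting error only. All members were named by the symbol rule, called ones with every library, and called partner genes. A marker gene of the lists is not reported here. Gene coordinates and lengths are from GENCODE on GRCm38, promoters from RefSeq.

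Alternatives were DESeq2 1.42.0, limma-voom (limma 3.58.1), other normalizations and filters, each library left out, a replicate block, the libraries without Eif2s3y, an Eif2s3y term, an acinar term, a term for the direction of the length relation and a length offset. The fits were tested on simulated data first.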

Additional observations from a re-analysis of the deposited data

Results flagged for a closer look

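For each tested member and group, 82 sets of 4 values in all, the distance from the highest or lowest value to the next was divided by the range. This ratio was above Dixon's 95% critical value in 5, where chance flags about 1 in 20 groups, or about 4.1 of 82. All 5 were NICD library 1 as the highest of its group. For Cdh7 the gap was 0.858 of the range (9.65 against 1.69 to 2.82 CPM), for Cdh9 0.926 (6.94 against 1.81 to 2.19 CPM) and for Ncam2 0.878 (6.46 against 1.11 to 1.76 CPM). For Pcdh15 it was 0.864 (24.1 against 7.69 to 9.93 CPM) and for Pcdh8 0.918 (5.08 against 2.40 to 2.62 CPM). Notch1 had 21219 counts in that library, within the range of its group. Of the 8 libraries it had the lowest summed β cell markers (72403 CPM) and the highest summed acinar markers (169749 CPM). The cause was not tested.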

How the results depend on the processing

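Of 935 log2 fold changes of 45 genes under 21 alternatives, 815 kept their direction and side of the threshold, 44 lost and 26 gained an adjusted p under 0.05, and 50, in 15 genes that were not called, changed sign. Of the members, 2 were called higher and 2 lower. Higher calls numbered 5 with DESeq2, 6 with the length offset, 4 with the term for the direction of the length relation, and 1 with median-ratio normalization, without a filter, with the acinar term, without the libraries with Eif2s3y, and with the replicate block. They ran from 1 to 4 with 1 library left out, most without NICD library 1. Lower calls numbered 0 without the libraries with Eif2s3y and 1 with an Eif2s3y term, and 1 to 10 with 1 library left out, again most without NICD library 1. Over all genes, 1020 calls became 2739 with DESeq2, 1548 with the length offset, 608 with the length term and 116 without the libraries with Eif2s3y, and 319 to 4954 with 1 library left out, the highest without NICD library 1 and the lowest without library 2. The other fits without 1 library gave 374 (NICD 4), 603 (NICD 5), 496 (control 1), 503 (control 2), 430 (control 4) and 866 (control 3). The 4 calls among partner genes became 10, 8, 2 and 0 in the same order, and 1 to 17 with 1 library left out. With upper-quartile normalization 70.7% of all calls were higher, against 62.0%. The causes were not tested.

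The replicate block could use only numbers 1 and 2, the pairs settled by the labels, whose deviations correlated at 0.276 and −0.0901. With it, 970 genes were called, among the members 1 higher and 2 lower. Signs changed as follows. Among the 5 libraries without Eif2s3y, log2 fold changes were 0.13 for Cdh5, 0.12 for Ctnna2, 0.025 for Fat1, 0.010 for Pcdh12, 0.045 for Pcdh15, 0.033 for Pcdh17, 0.19 for Pcdh18, 0.29 for Pcdh7 and 0.42 for Pcdh9. With the length term they were 0.027 for Cdh2, 0.094 for Cdh5, 0.36 for Fat1, 0.19 for Pcdh12, 0.49 for Pcdh15, 0.39 for Pcdh18 and 0.43 for Pcdh9. With the length offset they were 0.096 for Cdh2, 0.068 for Celsr2, 0.032 for Celsr3, 0.043 for Ctnna2, 0.39 for Fat1, 0.13 for Pcdh12, 0.38 for Pcdh15, 0.049 for Pcdh18, 0.17 for Pcdh19, 0.025 for Pcdh7 and 0.097 for Pcdh9. Ctnna2 was at 0.0018 with upper-quartile normalization, and Pcdh1 at −0.012 with limma-voom, −3.9e-05 with the acinar term and −0.12 with the Eif2s3y term. With 1 library left out, ranges were −0.21 to 0.0019 for Cdh2, −0.15 to 0.0028 for Ctnna2, −0.014 to 0.75 for Fat3, −0.11 to 0.20 for Pcdh1, −0.32 to 0.071 for Pcdh12, −0.60 to 0.19 for Pcdh15, −0.81 to 0.17 for Pcdh18 and −0.86 to 0.14 for Pcdh9. The 14 members under the count minimum had 0 to 24 counts in any library, and the part of depth in this was not tested.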
